A study of Mus musculus with 6 samples.

Results

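The immunoglobulin heavy chain locus was followed in RNA-seq of mouse LSKs, the Lin-Sca1+c-Kit+ bone marrow fraction that holds hematopoietic stem cells and multipotent progenitors. The members were all rows of the deposited expression table on chromosome 12 whose annotated type was an immunoglobulin V, D, J or C gene, which gave 144 of 54532 rows, made up of 113 V, 19 D, 4 J and 8 C segments. The rule used annotation and no measured value. All 144 lay on the minus strand between positions 113254830 and 116000461 of mm10, a span of 2.75 Mb. The constant region genes lay at the lowest positions, followed by the J segments, the D segments and, from position 113578504, the V segments.

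In C57BL/6 mice, 3 LSK libraries came from Myh9fl/fl;Mx1-cre animals (cKO, named Myh9-deficient by the study) and 3 from littermates with floxed Myh9 alleles and no cre (CTRL, the control). By the labels, both groups received 2 doses of poly I:C at 5 mg/kg, given every other day (the study's methods name a larger number of doses), and 100000 LSKs were sorted 4 days after the first dose, from mice genotyped at 4 to 5 weeks of age. Poly I:C induces interferon, which switches on the Mx1 promoter, and this promoter is not limited to hematopoietic cells. The control carried no cre, so the loss of Myh9 and the presence of an active cre cannot be told apart. How many mice stood behind a library was not given in the sources used here, so the p-values measure only the spread between these libraries.

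A heavy chain gene is assembled in developing B cells by joining 1 V, 1 D and 1 J segment, and the assembled exon is spliced to a constant region. Ighm is the first constant region to be used, and class switching in activated B cells replaces it by Ighg, Ighe or Igha. Each V segment has its own promoter, and a rearranged segment is transcribed far more strongly than an unrearranged one. Plasma cells secrete antibody and carry very high levels of these transcripts. Lymphoid-primed progenitors inside the LSK fraction begin to transcribe the unrearranged locus before recombination.

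Between 17571544 and 19894562 reads fell on genes in a library. All values below are FPKM (fragments set per length of the gene and per size of the library), or whole reads recovered from them. Myh9, the heavy chain of nonmuscle myosin IIA and the targeted gene, had 23.0, 22.6 and 22.0 FPKM in the 3 control libraries and 18.4, 19.96 and 17.7 in the 3 cKO libraries. It was lower in every cKO library (log2 fold change -0.26, adjusted p = 0.0064), and these values cover the whole gene. The LSK identity genes Kit, Ly6a (Sca-1) and Cd34 were at 23.9, 95.4 and 63.8 FPKM in control and at 21.5, 89.5 and 66.0 in cKO. Immunoglobulin and T cell receptor segments together took 0.116% to 0.119% of the reads in control and 0.208% to 0.223% in cKO, so the locus was read from a small part of each library.

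Of the 144 members, 105 had a read in at least 1 library, and the other 39 (22 V and 17 D segments) had none. A further 6 V segments had at most 3 reads in every library. The test was limma on log2(FPKM + 1) over the 11552 genes whose mean over the libraries reached 1 FPKM, with Benjamini-Hochberg adjustment and a call at an adjusted p under 0.05. It covered 84 members, namely 73 V, 2 D, 4 J and 5 C segments, and all log2 fold changes below are on this scale, which understates changes of low genes. Among these 84, 52 were higher in cKO (61.9%, where 19.9% of all genes tested were higher), 11 were lower (13.1%, where 20.6% of all genes were lower) and 21 were not called. In either direction, 40.5% of all genes tested were called. The median log2 fold change was 0.84 over the 84 members and -0.01 over all genes tested. In 53 of the members every cKO library lay above every control library, which was true of 25.5% of all genes, and in 12 every cKO library lay below, against 28.5% of all genes. At more than 2-fold with an unadjusted p under 0.05, 36 members were higher and 4 lower, against 1.43% and 0.701% of all genes. In bulk libraries, fewer cells of a type and less RNA per cell cannot be told apart, and this holds for every value that follows.

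The constant region genes moved in opposite directions. Igha, the constant region of IgA, had 129.8, 126.2 and 130.7 FPKM in control and 267.0, 255.1 and 266.9 in cKO. It rose 2.04-fold between the group means (log2 fold change 1.02, SE 0.028, adjusted p = 3.53e-06). Ighm, the constant region of IgM, had 99.4, 100.5 and 100.5 FPKM in control and 60.1, 58.2 and 58.8 in cKO. It fell by 0.75 on the log2 scale (SE 0.024, adjusted p = 5.79e-06), and the 3 libraries of each group stood within 2 FPKM of each other. Igha and Ighm were thus near each other in control, with an Igha to Ighm ratio of 1.26 to 1.31, and far apart in cKO, with a ratio of 4.38 to 4.54.

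The IgG constant regions that passed the filter all rose. Ighg2b had 4.11, 4.01 and 2.92 FPKM in control and 15.5, 16.3 and 17.9 in cKO, a rise of 4.5-fold (log2 fold change 1.92, SE 0.11, adjusted p = 5.18e-05). Ighg2c had 7.74, 7.57 and 7.39 FPKM in control and 18.8, 15.9 and 16.7 in cKO (log2 fold change 1.08, SE 0.063, adjusted p = 5.63e-05). Ighg1 had 6.56, 8.01 and 7.44 FPKM in control and 11.7, 12.3 and 13.9 in cKO (log2 fold change 0.71, SE 0.086, adjusted p = 0.00109). In none of these 3 genes did the groups overlap, and Ighg2b moved from the lowest of the 3 in control to a level beside Ighg2c in cKO.

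The other 3 constant region genes stayed under 1 FPKM. Ighe, the constant region of IgE, had 0, 1 and 0 reads in control and 22, 7 and 11 in cKO, a ratio of 41.4 with a 95% exact counting interval of 7.01 to 1674. Ighg3 had 0, 0 and 2 reads in control and 10, 21 and 10 in cKO, a ratio of 21.2 with an interval of 5.51 to 181. Such intervals cover counting error only. With no filter on low values, both were called higher over 24337 genes (adjusted p = 0.0434 for Ighe and 0.0345 for Ighg3). Ighd, the constant region of IgD, which mature naive B cells carry beside IgM, had 26, 18 and 32 reads in control and 18, 24 and 17 in cKO, so its groups overlapped (log2 fold change -0.12 with no filter, adjusted p = 0.525).

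**Figure D1:**
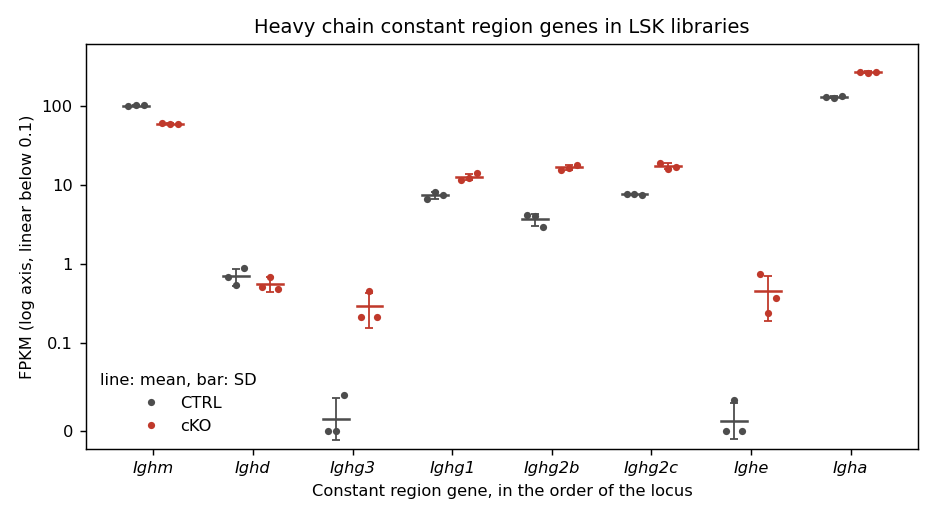
Points give the FPKM of each heavy chain constant region gene in each of 3 CTRL and 3 cKO libraries, on a log axis that is linear below 0.1, with the group mean as a line and the SD as a bar. Igha and the IgG genes sit higher in cKO, Ighm sits lower, and the Ighd groups overlap.

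Set as shares of the summed constant region FPKM, Igha made up 51.1% to 52.3% in control and 71.0% to 71.3% in cKO. The Ighm share was 40.0% to 40.7% in control and 15.7% to 16.2% in cKO. The 4 IgG genes together held 7.12% to 7.93% in control and 12.3% to 12.98% in cKO. The groups did not overlap in any of these shares. The summed constant region level itself was 248.3, 246.9 and 249.8 FPKM in control and 374.6, 359.2 and 375.2 in cKO, so the fall of Ighm took place inside a larger total.

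The D and J segments are short, and their reads were few. The 4 J segments and the 1 D segment with at least 10 reads are printed to show how short they are, with 11 to 54 bases printed. The deposited gene length of Ighj2 was 100 bases, so its reads could come from more than the 48 bases printed. The sequences are those of the GENCODE M21 transcripts on GRCm38 (the mm10 assembly), minus strand, 5′ to 3′. Capitals mark TGGGG, the tryptophan codon and the first bases of the glycine codon of the joining motif. It was found on this strand in 4 of 4 J segments and in 9.11% of all 48-base windows of the V transcripts, and in 9.74% of those windows when both strands were searched. Ighj2 has 2 annotated transcripts, and a transcript holding the motif was preferred, so its hit was favoured by that choice.
Ighj1: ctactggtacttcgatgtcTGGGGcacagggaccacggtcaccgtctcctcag
Ighj2: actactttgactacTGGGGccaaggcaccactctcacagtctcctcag
Ighj3: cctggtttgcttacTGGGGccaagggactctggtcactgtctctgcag
Ighj4: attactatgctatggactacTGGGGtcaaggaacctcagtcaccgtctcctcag
Ighd4-1: ctaactgggac

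None of the 4 J segments was called by limma or voom, and 0 had an unadjusted p under 0.05. Ighj1, the J segment nearest to the D segments, had 27, 36 and 16 reads in control and 21, 14 and 23 in cKO (log2 fold change -0.36, adjusted p = 0.407). Ighj2 had 8, 7 and 9 reads against 2, 8 and 6 (log2 fold change -0.53, adjusted p = 0.239). Ighj4 had 4, 11 and 10 reads against 7, 15 and 7 (log2 fold change 0.23, adjusted p = 0.7). The groups overlapped in all 3, and the sign of Ighj4 turned when control library 1 or cKO library 2 was left out (-0.20 and -0.11). Ighj3 had 4, 2 and 8 reads against 15, 11 and 3, and its log2 fold change of 0.88 (adjusted p = 0.278) became 1.49 and was called when cKO library 3 was left out.

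Summed over the 4 J segments, reads were 43, 56 and 43 in control and 45, 48 and 39 in cKO, and the summed FPKM was 44.2 ± 10.6 (SD, n = 3) in control and 43.1 ± 5.44 in cKO. Among the D segments, Ighd4-1, the D segment nearest to the J segments (historically DQ52), had 2, 3 and 11 reads against 5, 8 and 0. It was not called (log2 fold change -1.03, adjusted p = 0.594), and the sign turned without cKO library 3 (0.63). Ighd1-1 had 4 reads, all in cKO library 3, and the other 17 D segments had none. The J groups overlapped with a ratio of summed FPKM of 0.975, against 1.97 for the V segments described next, and the difference between these ratios was not tested. The D segments, with 2 to 11 reads in a library, were too shallow to compare.

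The V segments as a group were about 2 times as abundant in the cKO libraries. Their summed FPKM was 381.9, 343.4 and 371.5 in control and 716.4, 698.7 and 742.1 in cKO, with means of 365.6 ± 19.9 and 719.1 ± 21.8 (SD, n = 3) and a ratio of 1.97. The V reads numbered 2795, 2230 and 2633 in control and 4949, 4679 and 5081 in cKO. Every cKO library lay above every control library. Without the V segment that had the most reads in each library the ratio was 1.95, so the sum did not rest on 1 segment. The V sum divided by the C sum was 1.39 to 1.54 in control and 1.91 to 1.98 in cKO.

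Of the 73 V segments tested, 48 were higher in cKO, 10 were lower and 15 were not called, with a median log2 fold change of 0.87. The segments did not scale together. The V profile of a library (log2 levels of the 91 V segments with reads) correlated with another library of its own group at a Pearson r of 0.932 to 0.956 in control and 0.966 to 0.973 in cKO, and with libraries of the other group at 0.613 to 0.653. These are descriptions across segments of shared libraries, and segments are not independent replicates. The spread of V reads inside a group, as chi-square per degree of freedom, was 2.14 in control and 2.24 in cKO, close to protein-coding genes of like depth (2.18 and 2.50). Between the groups, on reads summed over the libraries of each group, it was 61.7 for V segments and 17.3 for those genes. The summed reads are deeper, so these 2 values are not on the scale of those inside a group.

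**Figure D2:**
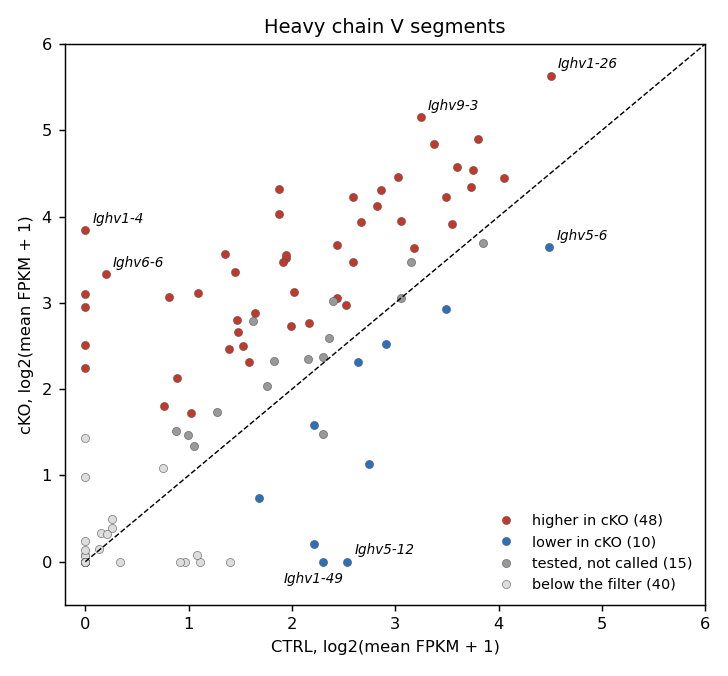
Each point is 1 of 113 V segments, with log2(mean FPKM + 1) of the 3 CTRL libraries on the x axis and of the 3 cKO libraries on the y axis, coloured by call, and a dashed line marks equal levels. 48 segments above the line were called higher and 10 below it lower, and several points lie on either axis.

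The number of segments in use depended on the number of reads asked for. Between 76 and 78 V segments had a read in a control library and between 77 and 81 in a cKO library. With at least 10 reads, it was 58, 55 and 60 in control and 66, 66 and 68 in cKO, without overlap, in libraries that also had more V reads in cKO. The effective number of V segments (the exponential of the Shannon entropy of their read shares) was 50.7 to 52.0 in control and 51.8 to 54.7 in cKO. The most frequent segment held 5.33% to 6.19% of the V reads in a control library and 6.04% to 7.07% in a cKO library, and the 10 most frequent held 38.5% to 40.1% and 36.0% to 38.8%. No library was dominated by a few segments, and the ranges of the groups met or overlapped in the effective number and in the share of the 10 most frequent.

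The most abundant V segments differed in part between the groups. Ighv1-26 led by mean in both, with 21.3, 20.2 and 23.6 FPKM in control and 45.5, 51.7 and 48.7 in cKO (log2 fold change 1.13, adjusted p = 6.33e-05). In control it stood beside Ighv5-6, with 20.7, 22.2 and 21.6 FPKM, which fell to 11.2, 11.5 and 11.9 in cKO (log2 fold change -0.84, adjusted p = 2.42e-05). In control library 2 Ighv5-6 had the most reads of all V segments. The next in control were Ighv1-81, Ighv1-82, Ighv1-64 and Ighv5-17, with means of 12.5 to 15.6 FPKM. Ighv1-82 had 13.55, 12.2 and 14.4 FPKM in control and 12.4, 11.2 and 12.3 in cKO and was not called (log2 fold change -0.15, adjusted p = 0.127), although it was called without control library 2 (-0.21).

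In cKO the second place belonged to Ighv9-3, which had 8.17, 6.305 and 10.98 FPKM in control and 31.6, 37.8 and 34.0 in cKO (log2 fold change 1.93, adjusted p = 0.000305). It was followed by Ighv1-64 at 28.8 ± 1.98 FPKM, Ighv1-22 at 27.6 ± 1.22, Ighv1-53 at 22.9 ± 2.6 and Ighv5-17 at 22.2 ± 4.45 (SD, n = 3). All 4 were higher than in control, where they stood at 12.9, 9.4, 11.1 and 12.5 FPKM.

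The sharpest pattern was that of V segments with reads in all 3 libraries of a group and none in the other. With at least 3 reads in every library of 1 group, 7 V segments had reads in cKO and 0 in control (Ighv1-4, Ighv1-5, Ighv14-1, Ighv5-15, Ighv5-9, Ighv2-6 and Ighv5-2). A further 6 had reads in control and 0 in cKO (Ighv5-12, Ighv1-49, Ighv3-5, Ighv2-6-8, Ighv1-47 and Ighv2-4). Of the 24337 genes with a read, 0.197% met this rule in the first direction and 0.0657% in the second, 64 genes in all, and the 13 V segments were 12.4% of the 105 heavy chain members with reads. The labels give C57BL/6 for all libraries. The heavy chain haplotype of the mice of each group was not given in the sources used here, and its part in these values and in the V profiles was not tested.

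Since V segments are copies of each other, some pairs that include segments of this pattern are printed, with the differences that fall in the printed bases. Each line gives the last 300 bases of the annotated GENCODE M21 transcript on GRCm38, 5′ to 3′ on the minus strand, and capitals mark the bases that differ from the partner. Ighv2-6 (chr12:113716670-113717103) and Ighv2-6-8 (chr12:113796138-113796567) had opposite patterns and were each other's nearest copy, with 18 differences in 350 bases, 14 of them printed.
Ighv2-6: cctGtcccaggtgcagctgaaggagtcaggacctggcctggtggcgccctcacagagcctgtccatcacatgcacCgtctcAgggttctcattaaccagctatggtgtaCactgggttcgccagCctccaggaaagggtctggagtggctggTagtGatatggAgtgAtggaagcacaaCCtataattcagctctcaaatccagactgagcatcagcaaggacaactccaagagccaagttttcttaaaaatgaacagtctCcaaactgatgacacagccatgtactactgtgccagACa
Ighv2-6-8: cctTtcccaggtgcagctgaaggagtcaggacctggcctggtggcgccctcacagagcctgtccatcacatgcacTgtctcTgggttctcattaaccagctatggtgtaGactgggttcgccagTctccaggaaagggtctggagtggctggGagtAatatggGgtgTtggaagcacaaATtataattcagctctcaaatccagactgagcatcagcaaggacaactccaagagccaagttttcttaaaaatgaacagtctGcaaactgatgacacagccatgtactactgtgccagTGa

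Ighv14-1 (chr12:113931953-113932382), without a read in control, and its nearest copy Ighv14-4 (chr12:114176438-114176867), with reads in both groups, differed at 9 of 351 bases, 8 of them printed.
Ighv14-1: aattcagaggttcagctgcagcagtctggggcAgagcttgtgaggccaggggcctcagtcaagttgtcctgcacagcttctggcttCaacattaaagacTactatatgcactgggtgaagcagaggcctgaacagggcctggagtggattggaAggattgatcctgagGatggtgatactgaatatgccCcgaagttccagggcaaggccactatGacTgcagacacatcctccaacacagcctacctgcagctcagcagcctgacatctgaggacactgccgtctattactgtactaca
Ighv14-4: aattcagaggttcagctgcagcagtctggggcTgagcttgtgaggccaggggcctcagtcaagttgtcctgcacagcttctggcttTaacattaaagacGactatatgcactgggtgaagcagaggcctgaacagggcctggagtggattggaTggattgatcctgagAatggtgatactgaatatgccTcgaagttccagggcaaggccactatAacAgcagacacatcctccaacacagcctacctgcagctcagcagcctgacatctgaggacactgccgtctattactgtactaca

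Ighv1-4 (chr12:114487136-114487569), the largest rise in log2 fold change, and its nearest copy Ighv1-7 (chr12:114538495-114538965) differed at 11 of 351 bases, 7 of them printed. Ighv1-7 was not called (3.45 FPKM in control and 4.08 in cKO).
Ighv1-4: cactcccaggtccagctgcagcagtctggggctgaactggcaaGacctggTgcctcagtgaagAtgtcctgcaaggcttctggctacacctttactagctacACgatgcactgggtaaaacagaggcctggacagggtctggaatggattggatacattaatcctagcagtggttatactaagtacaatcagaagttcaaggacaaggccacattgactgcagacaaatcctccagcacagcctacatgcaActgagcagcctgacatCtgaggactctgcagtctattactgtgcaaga
Ighv1-7: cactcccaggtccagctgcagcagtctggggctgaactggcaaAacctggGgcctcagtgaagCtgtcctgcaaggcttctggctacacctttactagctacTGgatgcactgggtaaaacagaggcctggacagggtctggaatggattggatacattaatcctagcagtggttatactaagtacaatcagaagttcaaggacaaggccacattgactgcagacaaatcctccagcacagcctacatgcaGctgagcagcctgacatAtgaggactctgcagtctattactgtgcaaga

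Ighv5-12 (chr12:113702124-113702578), without a read in cKO, differed at 24 of 353 bases, 21 of them printed, from Ighv5-6 (chr12:113625506-113625956), the most abundant member of its family in control. The nearest copy of Ighv5-12 was Ighv5-4, with 21 differences, which is not printed.
Ighv5-12: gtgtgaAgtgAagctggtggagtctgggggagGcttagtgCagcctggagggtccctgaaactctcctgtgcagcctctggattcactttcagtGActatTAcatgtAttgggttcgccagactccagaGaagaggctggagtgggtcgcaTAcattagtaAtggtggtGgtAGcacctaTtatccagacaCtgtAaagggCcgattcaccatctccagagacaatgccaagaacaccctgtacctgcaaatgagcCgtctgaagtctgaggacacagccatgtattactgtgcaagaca
Ighv5-6: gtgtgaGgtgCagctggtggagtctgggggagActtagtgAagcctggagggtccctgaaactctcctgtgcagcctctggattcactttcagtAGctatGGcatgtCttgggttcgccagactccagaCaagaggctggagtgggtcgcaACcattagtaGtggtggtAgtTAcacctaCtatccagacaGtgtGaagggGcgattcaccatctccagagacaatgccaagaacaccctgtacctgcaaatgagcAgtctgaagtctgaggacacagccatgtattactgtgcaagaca

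Ighv1-4 had 0 reads in each control library and 91, 79 and 91 in the cKO libraries. Its cKO level of 13.4 ± 0.892 FPKM (SD, n = 3) was at least 29.5-fold higher than the level of 3 reads in each control library (adjusted p = 1.78e-06). This was the largest rise in log2 fold change of all V segments tested. Ighv1-5 had 0 reads against 50, 57 and 59 (at least 18.8-fold higher, adjusted p = 3.53e-06), and it overlaps the annotated microRNA gene Mir7094-2 on the same strand. Ighv14-1 had 0 reads against 41, 39 and 51 (at least 14.8-fold higher, adjusted p = 5.95e-06).

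Ighv5-15 had 0 reads against 38, 26 and 30 (at least 10.6-fold higher, adjusted p = 2.22e-05). Ighv5-9 had 0 reads against 27, 27 and 33 (at least 9.84-fold higher, adjusted p = 1.23e-05). The other 2 segments of this kind were lower and did not pass the 1 FPKM filter. Ighv2-6 had 0 reads against 11, 13 and 9, and Ighv5-2 had 0 reads against 7, 6 and 6, with adjusted p = 0.000622 and 0.000224 in the fit with no filter.

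In the opposite direction, Ighv5-12 had 30, 30 and 36 reads in control and 0 in each cKO library. It was at least 10.5-fold lower in cKO (adjusted p = 6.55e-06), and its fall in log2 fold change was the largest of all V segments tested. Ighv1-49 had 33, 19 and 27 reads in control and 0 in cKO (at least 8.53-fold lower, adjusted p = 4.82e-05). The other 4 did not pass the filter. Their control reads were 10, 7 and 16 for Ighv3-5, 9, 7 and 7 for Ighv2-6-8, 6, 5 and 9 for Ighv1-47, and 4, 3 and 12 for Ighv2-4. With no filter, the adjusted p was 0.00472, 0.000286, 0.00294 and 0.0585 in the same order, so Ighv2-4 missed the threshold.

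**Figure D3:**
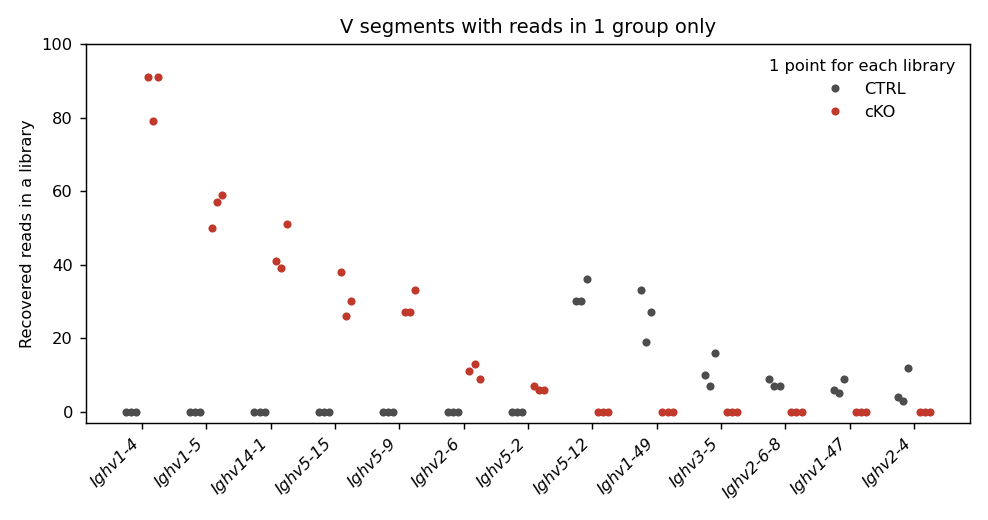
Each point is the number of recovered reads of a V segment in 1 library, for the 13 V segments with at least 3 reads in every library of 1 group and 0 in the other, with CTRL in grey and cKO in red. The 7 segments on the left reach 91 reads in cKO with 0 in control, and the 6 on the right reach 36 reads in control with 0 in cKO.

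Some segments came close to this pattern. Ighv6-6 had 0, 0 and 3 reads in control and 56, 57 and 67 in cKO, a read ratio of 62.1 with a counting interval of 20.9 to 304 (log2 fold change 3.15, adjusted p = 2.81e-05). Ighv9-2 had 22, 24 and 26 reads in control and 2, 0 and 1 in cKO, a control to cKO ratio of 23.2 with an interval of 7.63 to 115 (log2 fold change -2.01, adjusted p = 6.53e-05). Ighv1-84 had 12, 1 and 10 reads in control and 1, 0 and 0 in cKO. It was below the filter and, with no filter, was not called (adjusted p = 0.13), with control library 2 standing apart from the other two. Ighv1-84 was chosen after its values were seen.

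The remaining segments among the 8 largest rises were Ighv7-3 and Ighv1-75. Ighv7-3 had 2.79, 1.89 and 3.32 FPKM in control and 17.5, 19.7 and 19.7 in cKO, a rise of 7.11-fold (adjusted p = 5.46e-05). Ighv1-75 had 0.674, 0.761 and 0.838 FPKM in control and 5.58, 7.205 and 9.36 in cKO, a rise of 9.75-fold (adjusted p = 0.000117). Neither gene's groups overlapped. The remaining segments among the 8 largest falls were smaller changes. Ighv2-3 had 7.25, 6.38 and 3.45 FPKM in control and 1.08, 1.11 and 1.39 in cKO (log2 fold change -1.56, adjusted p = 0.0021). Ighv1-43 had 2.72, 2.10 and 1.78 FPKM against 0.6085, 0.625 and 0.766 (log2 fold change -0.93, adjusted p = 0.00141). Ighv1-42 (log2 fold change -0.65, adjusted p = 0.017) and Ighv2-9-1 (-0.55, adjusted p = 0.0329) also fell. The call of Ighv1-42 was lost without control library 2 or 3 or cKO library 2. That of Ighv2-9-1 was lost without any 1 library other than control library 3 (adjusted p up to 0.0937).

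Grouped by V family, the summed level was higher in cKO in most families and nearly level in a few. IGHV1, the largest family with 53 members, summed to 217, 185 and 204 FPKM in control and 411, 407 and 411 in cKO, a ratio of 2.03, and of its 38 members tested 25 were higher, 4 lower and 9 not called. It held 53.8% to 56.6% of the V reads in control and 55.0% to 58.0% in cKO. The largest ratios among families with more than 1 tested member were those of IGHV14 (3.77), IGHV6 (3.40), IGHV7 (2.91), IGHV9 (2.80), IGHV10 (2.62) and IGHV8 (2.47). All 4 IGHV14 segments were higher in cKO, led by Ighv14-2, which had 7.31, 4.85 and 6.09 FPKM in control and 12.9, 14.4 and 21.7 in cKO (adjusted p = 0.0034). The call of Ighv14-3 (log2 fold change 0.78, adjusted p = 0.0323) was lost with no filter and without control library 3 or any 1 cKO library. The IGHV14 share of the V reads was 2.11% to 2.83% in control and 4.40% to 5.196% in cKO.

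IGHV5 and IGHV2, the families nearest to the D segments, showed the opposite tendency in their shares. IGHV5 summed to 46.9, 50.4 and 52.8 FPKM in control and 70.8, 62.2 and 76.1 in cKO, a ratio of 1.39, and its share of the V reads was 12.6% to 15.0% in control and 9.55% to 11.0% in cKO. Of its 8 tested members 6 were higher and 2 (Ighv5-6 and Ighv5-12) lower. Its highest member by the mean of all libraries, Ighv5-17, had 12.8, 12.6 and 11.96 FPKM against 20.3, 19.1 and 27.3 (log2 fold change 0.77, adjusted p = 0.00337). IGHV2 summed to 27.9 ± 3.18 FPKM (SD, n = 3) in control and 28.8 ± 3.62 in cKO, with 2 members higher, 2 lower and 1 not called, and its share was 6.61% to 8.52% against 3.70% to 4.45%. In both families the groups of shares did not overlap.

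IGHV4 and IGHV11, each with 1 segment in use, were not called, and their groups overlapped. Ighv4-1 had 5.22, 8.63 and 8.05 FPKM in control and 7.09, 5.56 and 9.22 in cKO (adjusted p = 1), and the sign of its log2 fold change, close to 0, turned under several settings. Ighv11-2 had 3.49, 3.57 and 4.75 FPKM against 4.05, 4.04 and 4.43 (log2 fold change 0.08, adjusted p = 0.584). In IGHV3, Ighv3-6 rose from 5.89, 7.13 and 5.81 FPKM to 14.9, 21.15 and 20.3 (adjusted p = 0.000388) and the other 2 tested members were not called. Ighv12-3 rose from 0.57, 0.643 and 0.886 FPKM to 2.12, 2.95 and 2.44 (adjusted p = 0.000795).

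The highest members of IGHV6, IGHV8, IGHV10 and IGHV13 by the mean of all libraries rose as well. Ighv10-3 had 6.27, 3.61 and 6.22 FPKM in control and 15.7, 14.0 and 13.3 in cKO (adjusted p = 0.00188). Ighv6-3 (log2 fold change 0.63, adjusted p = 0.0214), Ighv8-12 (0.89, adjusted p = 0.0238) and Ighv13-2 (0.67, adjusted p = 0.0437) passed the threshold less firmly. The call of Ighv6-3 was lost without cKO library 1 or 3, that of Ighv8-12 without control library 2 or 3 or cKO library 1 or 2, and that of Ighv13-2 without any 1 library other than cKO library 2. Ighv15-2 and Ighv16-1, the sole members of IGHV15 and IGHV16, had no reads.

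**Figure D4:**
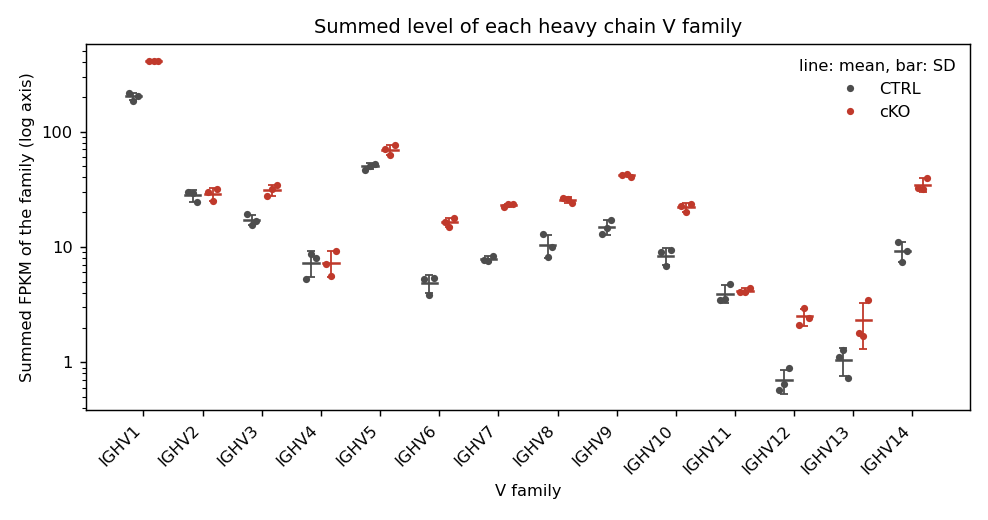
Points give the summed FPKM of the members of each V family in each of 3 CTRL and 3 cKO libraries, on a log axis, with the group mean as a line and the SD as a bar, and the 2 families without reads are left out. IGHV14, IGHV6 and IGHV7 sit well above control in cKO, while the groups of IGHV2, IGHV4 and IGHV11 overlap.

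The changes showed no slope with position along the locus. Over the 73 V segments tested, the log2 fold change and the start position had a Pearson r of 0.05 and a Spearman rho of 0.02, given as a description since neighbouring segments share family and sequence. In windows of 0.5 Mb from the V segment nearest to the D segments, the ratio of summed FPKM was 1.37, 3.40, 1.86, 2.86 and 1.58. The first window summed to 110.8, 110.0 and 110.3 FPKM in control and 148.9, 134.1 and 170.1 in cKO, and it held 11 higher and 5 lower of 20 tested. The second summed to 46.7, 42.2 and 50.5 FPKM in control and 154.4, 155.3 and 163.6 in cKO, with 12 higher and 1 lower of 16. Among the 12 tested segments of the fourth window, 9 were higher and 0 lower by limma, with 0 lower also by voom and at an unadjusted p under 0.05. The first window held 29.5% to 32.7% of the V reads in control and 20.1% to 23.9% in cKO, and the second held 11.9% to 13.2% and 21.01% to 21.7%. Of the 13 segments with reads in 1 group, 8 lay in the first window, 3 in the second and 2 in the third.

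**Figure D5:**
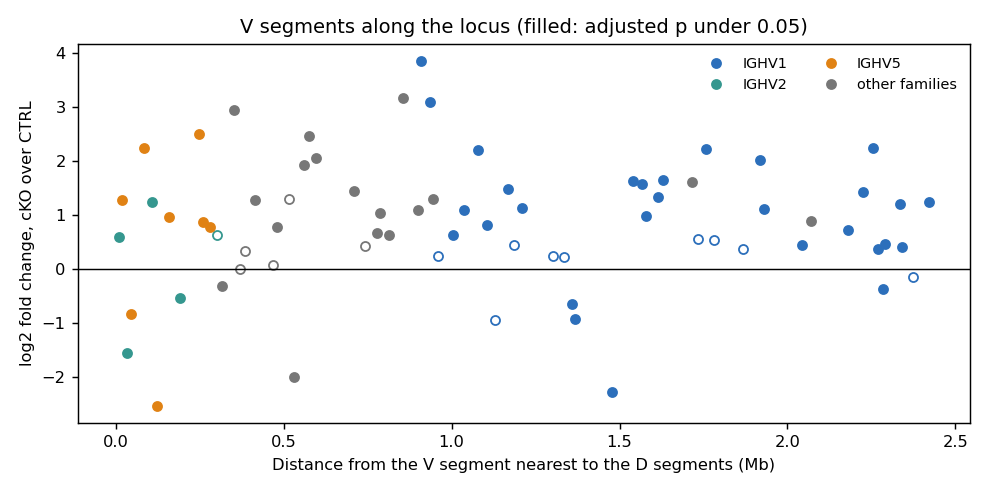
Each point is 1 of 73 V segments tested, with its distance in Mb from the V segment nearest to the D segments on the x axis and its log2 fold change (cKO over CTRL) on the y axis, coloured by family, filled where the adjusted p was under 0.05. Rises and falls lie side by side in the first 1.5 Mb, and the points show no slope with distance.

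How far reads can be told apart between copies bears on each V value, because the handling of reads that match several copies was not given in the sources used here. The V transcripts were 72.8% to 99.7% identical to their nearest copy, with a median of 94.9%. The share of their 50-base windows found in no other transcript of the annotation was 78.1% at the median and ranged from 2.58% to 100%. Of the 113 segments, 98 had more than 50% of such windows. For the 7 segments with reads in cKO and none in control the median was 86.2%, for the 6 of the opposite kind 87.8%, and for the 22 V segments without reads 92.9%. The lowest of the 7 was Ighv14-1 (54.6%) and the lowest of the 6 was Ighv2-4 (44.5%). Over all V segments the lowest were Ighv1-71 (2.58%), Ighv1-72 (7.49%) and Ighv1-62-2 (8.21%). Ighv1-71 and Ighv1-62-2 differ at 1 base from each other, and Ighv1-72 differs at 3 from Ighv1-62-3, so their values are uncertain. Ighv1-71 was not tested and Ighv1-62-2 was not called, but Ighv1-72 was called higher (adjusted p = 0.0043 by limma). Ighv1-52 (29.7%), Ighv1-53 (42.4%), Ighv2-2 (44.6%) and Ighv1-50 (47.8%) were also called higher with under 50% of such windows.

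The immunoglobulin light chain genes and other transcripts of the locus were measured beside these. Of 69 light chain V segments tested, 51 were higher in cKO (73.9%) and 7 lower (10.1%). Igkc, the kappa constant region, had 427.7, 419.9 and 414.0 FPKM in control and 918.2, 813.8 and 908.9 in cKO (log2 fold change 1.06, adjusted p = 2.07e-05). Of 81 heavy chain V pseudogenes 16 had reads, with 14 to 21 reads in a control library and 19 to 23 in a cKO library, and none passed the filter. Adam6a, between the D and V segments, had no reads, and Adam6b, inside the D region, had 3, all in cKO library 3. Among T cell receptor V segments, 3 were tested and 0 were called by limma or voom, while 2 were lower at an unadjusted p under 0.05.

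Markers of cells that carry heavy chain transcripts were set against all genes tested, of which 19.9% were higher and 20.6% lower. Jchain, which joins IgA and IgM into polymers and marks antibody-secreting cells, had 30.3, 30.1 and 30.8 FPKM in control and 64.6, 60.1 and 67.3 in cKO (log2 fold change 1.05, adjusted p = 1.36e-05). Of 19 plasma cell markers, 13 were tested, with 6 higher (46.2%) and 6 lower (46.2%). The summed level of that list was 381.9 to 389.7 FPKM in control and 411.4 to 417.4 in cKO. The chaperone genes Fkbp11 (log2 fold change 0.85) and Mzb1 (0.84) and the endoplasmic reticulum protein gene Derl3 (0.54) were higher, while Sdc1 (CD138, -0.41), the transcription factor gene Xbp1 (-0.32) and Tnfrsf13b (the receptor TACI, -0.31) were lower. Prdm1, the plasma cell master regulator, stayed below the filter with 75 reads in all 6 libraries. Of 20 mature B cell markers, 7 were tested, 5 were higher (71.4%) and 0 lower by limma (0 lower also by voom and at an unadjusted p under 0.05). The sums of that list were 98.8 to 101.9 FPKM in control and 118.1 to 122.0 in cKO. Cd74, the MHC class II invariant chain, rose most (log2 fold change 1.37, adjusted p = 3.53e-06), followed by Cd72 (0.58), Cd79a (0.54) and Tnfrsf13c (0.51). The defining B cell genes Ms4a1, Pax5 and Ebf1 had 6, 9 and 11 reads in all 6 libraries together. No marker of either list was at 0 reads in all libraries. The median log2 fold change of the tested plasma cell markers was -0.09 and that of the mature B cell markers 0.51. The part of these cell types in the heavy chain values was not tested.

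Genes of the recombining progenitor were read in the same way, against 19.9% higher and 20.6% lower over all genes tested. Of 13 pre-B and pro-B cell markers, 3 were tested and 2 were higher (66.7%). These were Cd24a (log2 fold change 0.30) and Dntt (0.19), the polymerase that adds bases at V(D)J joints. The summed level of that list was 159.6 to 162.3 FPKM in control and 191.1 to 196.9 in cKO. Of 14 genes of lymphoid-primed progenitors, 9 were tested, with 3 higher (33.3%) and 2 lower (22.2%). The higher ones were Flt3 (by 0.58), Lsp1 (by 0.56) and Dntt, and Notch1 (-0.37) was among the lower. Of 10 LSK identity genes, 9 were tested, with 4 higher (44.4%), led by Procr (0.67), and 1 lower (11.1%), Kit (-0.14).

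Of 35 genes of V(D)J recombination and of heavy chain locus control, 27 were tested, with 4 higher (14.8%) and 10 lower (37.0%), against 19.9% and 20.6% of all genes. Xrcc5, the Ku80 subunit that binds broken ends, rose (log2 fold change 0.79), and Paxx, which joins the same complex, rose by 0.47. The transcription factor gene Spi1 (PU.1, -0.34), Pou2f2 (Oct-2, -0.33) and the cohesin subunit gene Smc1a (-0.32) were lower. Rag1 and Rag2, the recombinase, had 58 and 306 reads in all 6 libraries and stayed below the filter. Of 17 genes of class switching and hypermutation, 14 were tested, and 0 were higher by limma (0 at an unadjusted p under 0.05, 1 by voom). Lower were 4 (28.6%), with Ung, the uracil glycosylase, changing most (-0.49). Of all genes, 19.9% were higher and 20.6% lower.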

How the data were processed

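The authors deposited 1 table of FPKM values with 3 CTRL and 3 cKO columns, with gene names, types and mm10 coordinates. The submitters' processing notes name HISAT2 2.0.5 and mm10. The counter, its strand setting and its handling of reads that match several copies were not given in the sources used here, so values of near-identical and overlapping segments are uncertain. FPKM multiplied by gene length came in whole steps for 100% of values (tolerance 0.02 reads), which gave the recovered reads and 17571544 to 19894562 reads on genes. Groups without a read were set against a floor of 3 reads per library. FPKM divides by length, so D and J segments pass the filter at few reads.

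limma 3.58.1 in R 4.3.3 was fitted to log2(FPKM + 1) of all genes whose mean reached 1 FPKM (eBayes with trend, two-sided, Benjamini-Hochberg over all genes tested). On simulated data for this comparison (11552 genes, 200 changed), it called 99% of 2-fold and 100% of 4-fold changes and 0.167% of unchanged genes. The changed genes were drawn only from genes above a minimum read depth, and the same spread was set for all genes. These rates therefore do not cover segments with few reads or a larger spread between libraries. V, D and J sequences were read from GENCODE M21 transcripts (GRCm38), where all 144 identifiers had the same start and end. Copies were aligned with edlib 1.3.9.post1.

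The members, gene lists and tests were chosen with earlier results of these data known. Segments named were every C and J segment, D segments with at least 10 reads, the highest V segment of each family, the 8 largest called rises and falls, the 6 most abundant V segments of each group, and up to 4 called genes of each list. Other segments were named after their values were seen: the remaining V segments with reads in 1 group only, Ighv14-3, Ighd1-1, and the copies and neighbours used for comparison. Shld3 of the class switch list had no row in the table. Some genes of these lists are counted but not reported by name here. Alternatives were another pseudocount, filter, scaling or voom fit, a replicate block and leaving out each library.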

Additional observations from a re-analysis of the deposited data

How the results depend on the processing

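Of 609 alternative values of 42 results, 562 kept their direction and their side of the threshold, 32 kept the direction and lost the call, 2 gained it and 13 changed sign. A mean of at least 5 FPKM left 46 segments tested, with 34 higher and 4 lower, since fewer were tested. At more than 2-fold with an unadjusted p under 0.05, 36 were higher and 4 lower. The voom fit on recovered reads gave 48 higher and 8 lower, and with a mean of at least 10 reads (an alternative chosen after seeing the data, 76 tested) 48 and 7. With 1 library left out, 46 to 52 segments were higher and 8 to 10 lower, Ighm changed by -0.77 to -0.74 and the ratio of summed V levels was 1.91 to 2.01. Among the adjusted-p fits in which a segment passed the filter, 43 of the 52 higher and 7 of the 11 lower calls held in every one. The signs that turned belonged to segments that were never called in these fits. Without 1 library, Ighj4 ran from -0.1981 (without CTRL replicate 1; -0.1114 without cKO replicate 2) to 0.5071, and Ighd4-1 from -2.0421 to 0.6347 (without cKO replicate 3). Ighv4-1 (-0.0002) was at 0.0005 with a pseudocount of 0.1, 0.0107 with median of ratios scaling, 0.0187 with quantile normalization, 0.0354 and 0.0356 in the voom fits, 0.0011 with totals without receptor segments, and -0.1954 to 0.1565 without 1 library (0.1199, 0.0751, 0.0055 and 0.1565 where it was above 0). The cause was not tested.

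The replicate numbers did not pair the libraries (correlations of deviations between same-numbered libraries -0.0046, -0.0112 and -0.0262, and no library correlated best with its own number). With the replicate block 52 segments were higher, 51 of them shared with the fit without it, and 10 lower. Ighv2-9-1 and Ighv13-2 lost their call under it. No scaling moved the median of all genes by over 0.1 on the log2 scale. The D segments had 2 to 11 reads in a library, which sets the limit for them.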

Other observations

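The protein-coding genes beside the constant region end of the locus gave the following values, chosen after the data were seen. Crip2, a LIM domain gene, had 2.18, 1.65 and 1.91 FPKM in control and 6.08, 6.06 and 6.94 in cKO (log2 fold change 1.34, adjusted p = 7.71e-05 by limma). Tmem121, the nearest to Igha, had 1.95, 1.19 and 1.19 FPKM in control and 3.87, 4.49 and 3.99 in cKO (log2 fold change 1.08, adjusted p = 0.00102). Crip1 (log2 fold change 0.59, adjusted p = 0.000755) and Tedc1 (0.34, adjusted p = 0.00103) were higher too, while Mta1, the next gene outward, was not called (0.05, adjusted p = 0.307). Beyond the V segments, Zfp386 was lower (-0.23, adjusted p = 0.0266).

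The lincRNA gene Gm19331, on the opposite strand to Ighv1-62-1 inside the V region, had 4, 4 and 3 reads in control and 10, 9 and 9 in cKO. Ighv1-62-1 had 0 reads in control and 1, 0 and 1 in cKO, and without a strand setting reads of the pair cannot be told apart. Ighv9-1 missed the threshold at a log2 fold change of 1.29 (adjusted p = 0.0571), with 0.573, 4.20 and 1.48 FPKM in control and 8.67, 4.22 and 4.90 in cKO, where control library 2 stood just under cKO library 2, and the voom fit called it higher (adjusted p = 0.00562). Ighv1-19 missed it in the other direction at -0.95 (adjusted p = 0.0732), with 3.60, 4.06 and 4.12 FPKM in control and 0.396, 1.90 and 3.05 in cKO, and the voom fit called it lower (adjusted p = 0.0203).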
